A study of Mus musculus with 16 samples.

Results

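Oocytes from in vitro follicle culture (IFC) were set against those of superovulated prepubertal females (SO), the age-matched group whose oocytes grew in the ovary. The comparison used the 9 libraries that the labels place in these groups, 4 IFC and 5 SO, of the 16 libraries of the series. All came from C57BL/6J X CBA/Ca F1 females, and the labels give an age of 23 days for both groups. IFC oocytes completed their growth in follicles cultured with FSH from the preantral to the antral stage, so their labelled age includes the days in culture. They were then matured in vitro with hCG and EGF. SO oocytes were ovulated after injections of eCG and hCG. The remaining libraries, 4 of superovulated adults (SOA) and 3 of naturally ovulating adults (IV), both 10 weeks old, entered no test and served as an outside reference. Each library was made from a pool of MII oocytes, the mature stage arrested in metaphase of the second meiotic division. The labels do not say whether the pools of a group came from separate animals or cultures. The p-values draw on the spread between these pools, which may be partly technical, and not on a known spread between animals. The place of growth, the maturation and the hormones all differ between IFC and SO, and their parts cannot be told apart.

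CpG methylation is set anew in each growing oocyte. The de novo methyltransferase DNMT3A, with its cofactor DNMT3L, places it mainly over transcribed regions, which include the bodies of active genes and the maternally methylated imprint control regions, while untranscribed regions stay largely unmethylated. The mouse oocyte methylome is therefore bimodal, and it is completed late, as the oocyte nears its full size.

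Methylation was read by post-bisulfite adapter tagging, in which a call is a single read of a CpG cytosine as methylated or unmethylated. A level is the percent of methylated calls in a region of 1 library. The regions were fixed 10-kb bins of the GRCm38 autosomes, and 141035 of 246285 bins had the required 10 calls in each of the 9 libraries. The IFC libraries held 5311009 to 8231898 calls and the SO libraries 5247001 to 19660161, with SO1 and SO2 as shallow as IFC and SO3 to SO5 deeper. The median tested bin held 41.0 calls per library and 97.0 CpGs, against 47.0 CpGs in the bins left untested, so CpG-poor sequence is underrepresented. Gene expression was not measured, so the labelled cell type could not be checked by marker genes. Every library had the bimodal pattern of oocytes, with 41.4% to 44.0% of bins below 20% methylated and 25.4% to 28.8% at 80% or above. The extraction protocol in the labels speaks of a lysed blastocyst, while the titles and source names of all 9 libraries give oocytes.

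Methylation differed between IFC and SO at a small set of bins, in both directions. By a logistic model of the calls with a moderated dispersion (a quasi-binomial test, adjusted p under 0.05), 523 bins were hypomethylated in IFC, 0.371% of the tested bins, and 209 were hypermethylated, 0.148%. The difference of the group means had a median of -28.4 percentage points in the hypomethylated bins, of which 450 differed by at least 20 points. In the hypermethylated bins the median was 25.1 points, and 150 differed by at least 20 points. All IFC libraries lay below all SO libraries in 422 of the 523 hypomethylated bins and above them in 142 of the 209 hypermethylated bins. Among all tested bins the groups were separated this way in 1.59% with IFC below and in 1.3% with IFC above. An unadjusted p under 0.05 was found in 12179 bins, 8.64% of those tested. The counts were 338, 317, 265 and 329 hypomethylated bins without IFC1, IFC3, IFC4 or SO3, and 121 and 335 hypermethylated bins without IFC3 or SO4. Without IFC4 and SO4 together, a choice made after seeing the data, they were 401 and 291, with only the shallow SO1 and SO2 57 and 18, and with limma on percentages 29 and 14. They were 346 and 131 with the libraries thinned to equal calls and 286 and 137 with at least 20 calls per library, while a likelihood-ratio test without dispersion called 4037 and 3360.

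**Figure D1:**
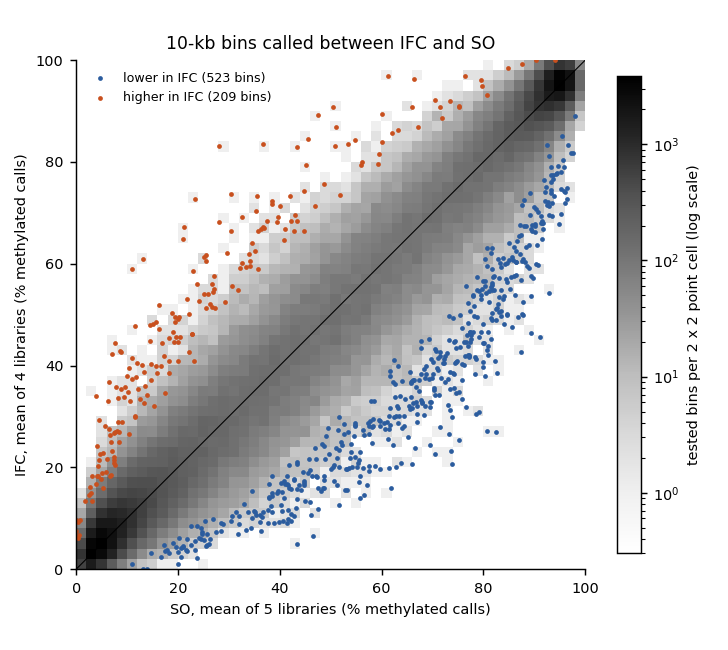
Mean percent of methylated calls per 10-kb bin in SO (horizontal axis, 5 libraries) and in IFC (vertical axis, 4 libraries); grey cells count the 141035 tested bins on a log scale and points are the called bins. The 523 hypomethylated bins (blue) lie below the diagonal, at a mean SO level of 64.8%, and the 209 hypermethylated bins (orange) lie above it, at a mean SO level of 26.6%.

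The leading bins were chosen as those with the largest difference among called bins whose groups did not overlap, so their separation is part of the choice. The leading hypomethylated bins lay in Pipox, the peroxisomal oxidase of pipecolic acid and sarcosine, and in Adam23, a membrane disintegrin without protease activity. The leading hypermethylated bins lay in Crhr1, the receptor of corticotropin-releasing hormone, and in an intergenic stretch 946 bp from the lncRNA gene Gm36677. For these 4 bins the 200 bases with the most calls over the 9 libraries are printed, chosen by depth and not by level, to show sequence in which the calls were made. They are the forward strand of GRCm38 with each CpG in capitals. Per library, 0.658 to 2.07% of the positions with a call were not at a CpG of the reference. The windows are chr11:77885220-77885419 in an intron of Pipox, chr1:63588554-63588753 in an intron of Adam23, chr11:104157715-104157914 in an intron of Crhr1, and chr15:59621540-59621739 outside annotated genes.
Pipox: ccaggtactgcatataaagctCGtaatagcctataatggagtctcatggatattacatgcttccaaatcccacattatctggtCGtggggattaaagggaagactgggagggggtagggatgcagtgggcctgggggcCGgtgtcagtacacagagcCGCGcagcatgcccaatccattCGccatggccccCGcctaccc
Adam23: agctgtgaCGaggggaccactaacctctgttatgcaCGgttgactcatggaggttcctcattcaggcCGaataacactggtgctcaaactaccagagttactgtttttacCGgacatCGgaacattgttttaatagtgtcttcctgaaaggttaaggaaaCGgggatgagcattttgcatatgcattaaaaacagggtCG
Crhr1: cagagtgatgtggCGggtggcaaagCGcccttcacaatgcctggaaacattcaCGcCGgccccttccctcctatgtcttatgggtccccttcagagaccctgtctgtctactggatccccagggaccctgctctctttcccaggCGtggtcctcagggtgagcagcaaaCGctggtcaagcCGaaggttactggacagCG
Intergenic: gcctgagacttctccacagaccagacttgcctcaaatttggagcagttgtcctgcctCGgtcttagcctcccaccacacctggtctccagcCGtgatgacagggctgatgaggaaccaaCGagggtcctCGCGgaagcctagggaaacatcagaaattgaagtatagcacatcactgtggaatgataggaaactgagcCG
The Pipox window holds 7 CpGs, and 11 of 25 calls there were methylated in IFC against 30 of 32 in SO. In the Adam23 window, with 7 CpGs, the counts were 4 of 37 against 12 of 27. In the Crhr1 window, with 8 CpGs, 22 of 33 calls were methylated in IFC against 7 of 34 in SO. Single libraries weigh heavily in such small windows. In that of Pipox, IFC2 gave 10 of the methylated IFC calls and SO3 gave 19 of the SO calls. In that of Crhr1, IFC3 had 2 of 8 and IFC4 0 of 4 calls methylated, unlike IFC1 and IFC2, and all methylated SO calls came from SO2, with 7 of 12. In the intergenic window, with 6 CpGs, 16 of 22 calls were methylated in IFC against 12 of 62 in SO. All methylated IFC calls there came from IFC1, with 9 of 10, and IFC3, with 7 of 7, while IFC2 had 0 of 5 and IFC4 gave no call. The windows were not tested, and the comparison rests on the whole bins.

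Over the whole Pipox bin (chr11:77880001-77890000, 147 CpGs) the level was 28.6, 38.8, 28.9 and 11.1% in IFC1 to IFC4. It was 93.5, 70.7, 85.4, 81.9 and 80.4% in SO1 to SO5. The difference of the means was -55.6 ± 6.84 points (SE, adjusted p = 2.75e-14, quasi-binomial test). The adult libraries averaged 83.0% in SOA and 79.98% in IV, beside SO. The Adam23 bin (chr1:63580001-63590000) had 16.7, 23.5, 39.1 and 28.9% in IFC and 86.7, 86.8, 87.4, 69.9 and 72.9% in SO. The difference was -53.7 ± 6.10 points (adjusted p = 1.03e-10).

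The other 6 leading hypomethylated bins differed by -53.1 to -47.8 points. They lay in Adamts19, a secreted metalloprotease, in an intron of Rspo3, an enhancer of WNT signalling, in Gm37240, a predicted protein-coding gene, and in 3 intergenic stretches nearest to Gm44778, Fbxo33 and 4933400L20Rik. The spread within IFC was unequal among them. In the stretch near Gm44778 the IFC libraries lay from 20.8 to 26.8%, while near Fbxo33 they ran from 4.55 to 52.0% against 65.4 to 91.3% in SO. A bin's own spread entered its p-value little, since the moderated dispersion was drawn close to the trend over all bins.

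The Crhr1 bin (chr11:104150001-104160000, 133 CpGs) had 91.3, 91.5, 71.7 and 77.9% in IFC. The SO libraries had 48.5, 32.1, 27.2, 17.6 and 14.8%, with SO1 the highest. The difference was 55.1 ± 7.79 points (adjusted p = 1.05e-15). The intergenic bin near Gm36677 (chr15:59620001-59630000) had 67.2, 75.0, 80 and 68.3% in IFC and 37.5, 17.0, 20.4, 18.3 and 23.3% in SO, a difference of 49.3 ± 4.77 points (adjusted p = 3.60e-11). Cd101 encodes a leukocyte surface protein, and its leading bin was at 46.7 to 75.7% in IFC and 10.0 to 16.0% in SO. The other 5 leading hypermethylated bins differed by 43.3 to 48.0 points, of which 3 lay in or beside Cystm1, 1 in the cadherin gene Cdh6 and 1 further along Crhr1. Of these 16 bins 10 passed the test under each alternative run on them. The others missed it when only the shallow SO1 and SO2 were used (in Rspo3, the intergenic bin beside Cystm1, 1 Cystm1 bin and the further Crhr1 bin) or with limma on percentages (near Fbxo33, in Cdh6 and in the further Crhr1 bin).

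**Figure D2:**
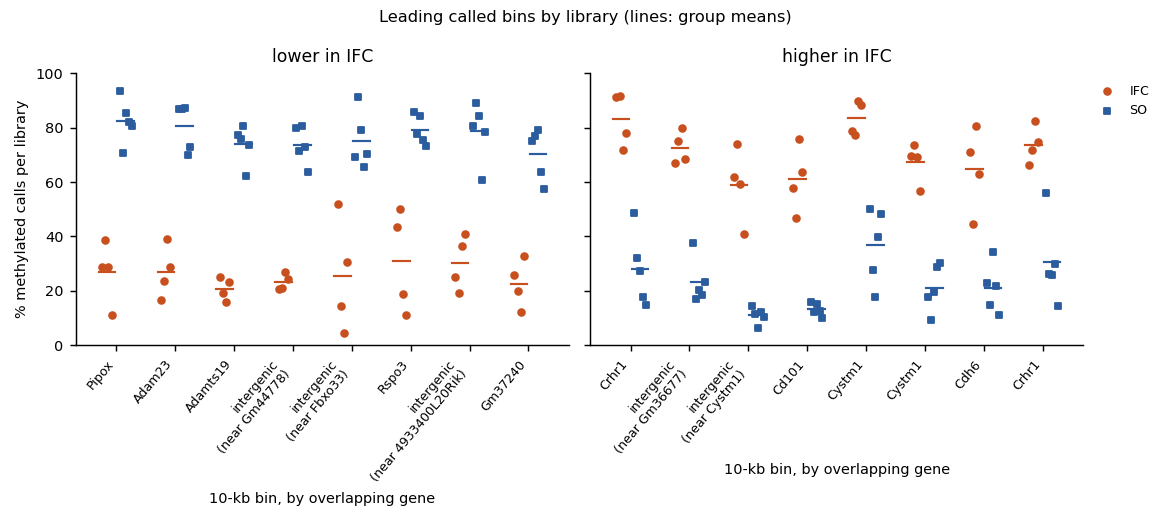
Percent of methylated calls in each IFC library (circles) and SO library (squares), with group means as lines, for the 8 hypomethylated and the 8 hypermethylated bins with the largest difference among those whose groups did not overlap. Each bin is named by the gene it overlaps or the nearest gene, and in each the IFC points lie on 1 side of the SO points, as the choice of bins required.

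The libraries of a group moved together over the called bins. In the hypomethylated bins the mean level was 37.3, 39.0, 37.0 and 32.6% in IFC1 to IFC4, or 36.5% ± 2.71 (SD, n = 4). It was 66.9, 66.4, 68.4, 61.2 and 61.1% in SO1 to SO5, or 64.8% ± 3.41 (SD, n = 5). In the hypermethylated bins it was 52.0, 53.2, 53.5 and 47.7% in IFC and 29.1, 27.8, 25.8, 25.7 and 24.5% in SO. These values describe bins that this contrast chose and do not test it. Since SO holds shallow and deep libraries, the difference was also taken against each kind, an alternative chosen after seeing the data. In the hypomethylated bins the median difference was -29.7 points against SO1 and SO2 and -26.8 points against SO3 to SO5. In the hypermethylated bins it was 21.9 and 26.7 points.

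The adult libraries took no part in the choice of bins and lay mostly on the SO side. In the hypomethylated bins SOA averaged 70.4% and IV 69.4%, and in the hypermethylated bins 31.1% and 30.4%. Of 482 hypomethylated bins with enough calls in every adult library, the adult mean was nearer to SO than to IFC in 472, or 97.9%. In 386 of them all 7 adult libraries lay above all 4 IFC libraries. Of 201 hypermethylated bins the adult mean was nearer to SO in 166, or 82.6%, and in 71 all adult libraries lay below all IFC libraries. No test was made of these shares, and they were not computed over all tested bins. The study suspected slight somatic cell DNA in IV1 but kept it. Of the autosomal calls 43.1% were methylated in IV1, 38.6 and 38.8% in IV2 and IV3, and 37.9 to 43.6% in the SOA libraries. The weight of IV1 in these counts was not tested. Bins called for a low or high IFC level tend to place any other libraries on the SO side by that choice alone. Both adult and SO oocytes grew and ovulated in vivo.

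At some hypermethylated loci the adults were nearer to IFC. Dok7, the adaptor that activates the MuSK kinase at the neuromuscular junction, was such a locus. Over its 4 called bins IFC was at 88.5, 90.4, 83.3 and 81.0% and SO at 62.7, 60.5, 49.8, 48.0 and 45.5%, while SOA averaged 80.2% and IV 76.5%. The gene body of Soga1 was at 46.6% in IFC and 25.4% in SO, with adult means of 59.3% (SOA) and 50.7% (IV). That of Flnc, the muscle filamin, was at 51.4% against 30.1%, with adult means of 48.4% (SOA) and 49.2% (IV). Differences from the adult groups were not tested.

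The called bins are described by their genomic setting without a test. Hypomethylated bins overlapped a protein-coding gene in 58.9%, against 58.6% of all tested bins, and held the start of such a gene in 6.12%, against 11.0%. Hypermethylated bins overlapped a protein-coding gene in 73.2% and held a gene start in 21.1%. They were also richer in CpGs, with a median of 124 per bin against 100 in hypomethylated and 97.0 in all tested bins. The mean level in the adults was known for 482 hypomethylated, 201 hypermethylated and 127112 tested bins with enough calls in every adult library. Of these hypomethylated bins 39.6% lay at 80% or above in the adults and 31.7% at 60 to 80%, where 27.2% and 8.48% of all such bins lay. Of the hypermethylated bins 43.8% lay below 20% and 29.4% at 20 to 40%, where 43.5% and 11.6% of all such bins lay. Bins near 0% can hardly fall and bins near 100% can hardly rise, so these shares are partly fixed by the level. Among the autosomes, chromosome 1 had the highest share of hypomethylated bins, 0.603%, and chromosome 16 the lowest, 0.0932%.

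Most called bins stood alone. Of the 523 hypomethylated bins 317 had no hypomethylated bin next to them, and the other 206, or 39.4%, formed 80 stretches of 2 or more. Of the 209 hypermethylated bins 156 stood alone, and 53, or 25.4%, formed 22 stretches. The next bin towards lower coordinates was tested for 451 of the 523 and 192 of the 209. Towards higher coordinates it was tested for 448 and 186. A bin can thus also count as alone because the next bin was not tested. The longest hypomethylated stretches, in Etl4 and in Myo16, were 60 kb each, and the longest hypermethylated stretch covered 50 kb over Crhr1. The bins beside a hypomethylated bin, whatever their own call, were at 37.8% ± 1.96 in IFC and 53.4% ± 2.93 in SO on the side of lower coordinates (SD over libraries). On the other side they were at 40.7% ± 2.05 and 55.8% ± 2.73. Of these adjacent bins 27.9% and 28.1% were called hypomethylated themselves. At 50 kb the difference was -6.21 and -6.63 points, and at 100 kb -3.46 and -3.66 points. Around hypermethylated bins the difference was 10.0 and 10.6 points at 10 kb and 1.03 and 0.273 points at 100 kb.

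**Figure D3:**
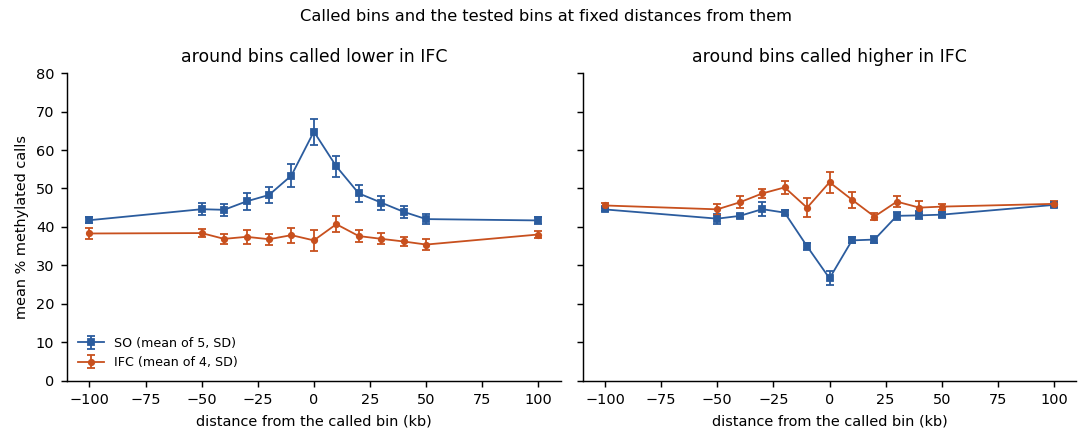
Mean percent of methylated calls in IFC (circles, 4 libraries) and SO (squares, 5 libraries), with the SD over libraries, in called bins (distance 0) and in tested bins up to 100 kb away. Around hypomethylated bins SO peaks at 64.8% while IFC stays between 35.4 and 40.7%, and around hypermethylated bins SO dips to 26.6%.

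By genes, 241 of 30233 annotated protein-coding or lncRNA genes overlapped a hypomethylated bin and 32 overlapped 3 or more. For hypermethylated bins the counts were 174 and 7. The genes described next, in both directions, were named for their called bins of this contrast. Their gene-body p-values draw on the same calls and are no separate support. The gene with the most hypomethylated bins was Myo16, an unconventional myosin known from neurons, with 16 of its 46 tested bins. Its gene body (chr8:10153911-10634742) was at 53.9, 58.0, 52.7 and 45.6% in IFC and 68.3, 67.5, 69.1, 67.7 and 65.8% in SO, a difference of -15.1 ± 2.64 points (SE, adjusted p = 7.15e-05, quasi-binomial test over 22484 gene bodies). The difference was not even along the gene. Over the 32 tested bins from the first to the last called bin, IFC was below SO in all, at 37.5% ± 5.6 against 60.5% ± 2.12. In the 14 bins that follow towards the 3′ end, it was below SO in 7, at 87.0% ± 2.02 against 87.3% ± 0.742. These segments were cut by the calls and are a description.

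Etl4, a gene of intervertebral disc development, had 14 hypomethylated bins within 250 kb of its 901-kb body (adjusted p of the gene body = 5.25e-04). Over the tested bins of that span IFC was at 28.1% ± 1.40 and SO at 53.6% ± 4.09, with all IFC libraries below all SO libraries. The span was cut by the calls, so this separation is part of the choice. In the 23 tested bins before the span no bin was called, at 23.6% ± 0.99 against 28.9% ± 2.17. There too the IFC libraries, at 22.6 to 24.8%, lay below the SO libraries, at 25.2 to 30.3%, with IFC lower in 15 of the bins. Plpp4, a phospholipid phosphatase, had 9 of 13 tested bins called. Its gene body was at 56.3, 52.1, 56.4 and 55.9% in IFC and 88.0, 86.3, 84.9, 73.4 and 75.2% in SO (adjusted p = 5.25e-04), and SOA averaged 87.5%.

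Rims1, a scaffold of the presynaptic release site, had 9 called bins among the 11 tested bins of their span. Over that span, again cut by the calls, IFC was at 30.4% ± 2.64 and SO at 64.6% ± 7.03. Over the gene body they were at 42.3% ± 3.30 and 56.7% ± 2.80 (adjusted p = 7.89e-04). Tenm4, a teneurin of cell adhesion, and Sox5, a SoxD transcription factor, had 8 called bins each, and Plxna4, a semaphorin receptor, had 7. The gene body difference was -11.3 points in Tenm4 (adjusted p = 6.14e-04), -12.5 points in Sox5 (adjusted p = 0.00648) and -9.14 points in Plxna4 (adjusted p = 0.0357). The call of Sox5 was lost without SO3 (adjusted p = 0.0537), and that of Plxna4 without any 1 of the 9 libraries (adjusted p from 0.0501 to 0.116).

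Long genes could hold a called stretch while the whole gene body did not pass the test. Chst11, a chondroitin sulfotransferase, Cdh13, the T-cadherin, Sh3gl2, the endophilin of synaptic vesicle recycling, Grin2b, a subunit of the NMDA receptor, and Camta1, a calmodulin-binding transcription activator, had 6 hypomethylated bins each. Gm37240 also had 6 and is left out here, since the tie was settled by the smaller gene-body p. The called bins of Camta1 were at 13.5, 12.01, 12.6 and 15.8% in IFC and 45.4, 42.6, 55.7, 29.7 and 28.5% in SO. Its gene body, with 96 tested bins, was at 34.5% against 35.6% (adjusted p = 0.890). The called bins of Grin2b were at 20.3 to 44.9% in IFC and 54.5 to 65.97% in SO, and 1 other bin of the gene was hypermethylated. In the 32 tested bins on the 5′ side of the called span the groups lay the other way, at 17.0 to 18.7% in IFC and 10.2 to 12.5% in SO. The Grin2b gene body was at 22.2% against 23.8% (adjusted p = 0.849, quasi-binomial test). The other 3 gene bodies had adjusted p of 0.192 (Chst11), 0.480 (Cdh13) and 0.496 (Sh3gl2).

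Map2k6, the kinase that activates p38, had the most hypermethylated bins, 6 of 14. Its gene body (chr11:110399122-110525522) was at 53.9, 42.2, 52.5 and 52.5% in IFC and 33.3, 33.2, 28.4, 31.6 and 33.4% in SO, a difference of 18.3 ± 2.87 points (adjusted p = 2.06e-04). SOA and IV averaged 26.2% and 26.1%. Crhr1 had all 5 of its tested bins called. Its gene body (chr11:104132855-104175523) was at 73.9, 82.7, 75.7 and 71.3% in IFC and 50, 26.8, 29.8, 27.5 and 23.6% in SO, with SO1 apart from the others, a difference of 44.3 ± 5.31 points (adjusted p = 1.81e-06).

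The other 10 genes with the most hypermethylated bins were Soga1, Dok7, Cystm1, Slc12a3, Emx1, Cd101, Fhdc1, Cpne5, the lncRNA gene 1700001K23Rik and Flnc, with 2 to 4 called bins each. Their gene bodies differed by 15.9 points in the copine gene Cpne5 to 28.7 points in Dok7, with adjusted p from 3.06e-04 to 0.00523. These p-values are no separate support, since the genes were chosen by called bins of the same contrast. In all, counting Map2k6 and Crhr1, 7 genes held 3 or more hypermethylated bins and 19 held 2 or more. The ties at 2 were settled by the smaller gene-body p, which chose Cd101, Fhdc1, Cpne5, 1700001K23Rik and Flnc. Slc12a3, the sodium-chloride cotransporter of the kidney, was at 45.3, 44.8, 50.5 and 30.9% in IFC and 12.8 to 23.0% in SO. Emx1, a homeobox factor of the developing forebrain, was at 58.6, 47.8, 55.6 and 44.0% against 12.7 to 31.8%. Fhdc1, a formin, was at 32.4, 25.1, 22.5 and 25.2% against 5.58 to 10.9%. IFC4 was the lowest IFC library in each of these genes but Fhdc1, and it was also the lowest in the called bins of both directions on average. The call of 1700001K23Rik was lost without IFC3 (adjusted p = 0.0502).

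**Figure D4:**
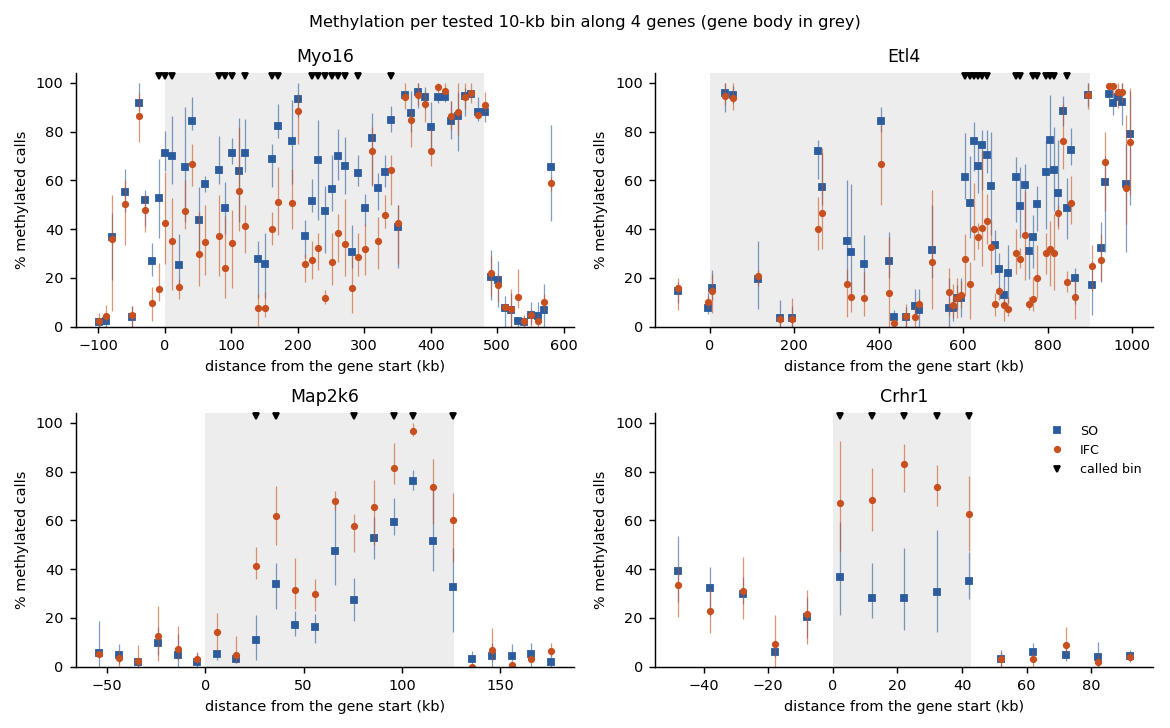
Percent of methylated calls per tested 10-kb bin along Myo16, Etl4, Map2k6 and Crhr1 by distance from the gene start in kb (gene body in grey), for SO (squares) and IFC (circles); points are group means, lines the range of the libraries, and triangles mark called bins. In Myo16 the groups part over the 5′ section and meet at 87.0% and 87.3% near the 3′ end, and in Crhr1 they part over the gene body and lie close in the bins on each side of it.

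Over whole gene bodies, 61 were hypomethylated in IFC, 0.271% of the 22484 tested, and 46 were hypermethylated, 0.205%. The groups did not overlap in 58 of the 61 and in 44 of the 46, where 1.45% of all gene bodies had IFC below and 1.7% had IFC above. The hypomethylated gene bodies had a median length of 95.8 kb, against 21.6 kb over all tested, and 16 were of lncRNA genes. The hypermethylated ones had a median of 34.3 kb and included 4 of lncRNA genes. The counts were 35, 29, 29, 40 and 30 hypomethylated gene bodies without IFC1, IFC3, IFC4, SO2 or SO3, and 21, 25 and 18 hypermethylated ones without IFC1, IFC2 or IFC3. With limma on percentages 0 passed in either direction, where 1938 had an unadjusted p under 0.05 by the quasi-binomial test, and with only the shallow SO1 and SO2 3 and 0. Without IFC4 and SO4 together the counts were 24 and 42, with thinned libraries 42 and 29, and with the likelihood-ratio test 1478 and 2763. The following genes were chosen after their values were seen, for the largest differences or for their position. The largest falls in protein-coding genes were in Pipox, in Bok, of the BCL2 family, and in Cnot7, a deadenylase. Pipox was at 24.6, 32.9, 23.1 and 11.8% in IFC and 88.3, 64.0, 81.1, 71.0 and 76.8% in SO. Bok was at 24.3, 43.7, 33.3 and 36.3% against 69.0, 75.3, 62.7, 67.2 and 56.1% (adjusted p = 0.00734). Its neighbour Stk25, a serine-threonine kinase, went the opposite way, at 80.6% ± 6.52 in IFC and 59.6% ± 5.06 in SO (adjusted p = 0.0359).

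After Crhr1 the largest rises were in Srp19, of the signal recognition particle, in Pygm, the glycogen phosphorylase of muscle, and in Derl2, of endoplasmic reticulum-associated degradation. Pygm was at 91.0, 92.5, 96.0 and 82.7% in IFC and 69.8, 55.7, 30.04, 54.3 and 56.5% in SO (adjusted p = 0.00188). Srp19 rested on as few as 12 calls in a library (adjusted p = 0.0497). Snhg14, the long host transcript of the imprinted Snrpn and Ube3a domain, has a body of 668 kb and was at 67.9, 72.5, 71.2 and 69.1% in IFC and 58.9, 60.1, 57.3, 57.3 and 58.9% in SO (adjusted p = 0.00523). The adult means, 66.7% in SOA and 65.4% in IV, were nearer to IFC. In 3 pairs of called genes the bodies overlap on opposite strands and share calls (Cercam with 2600006K01Rik, Ryr1 with Gm26604, Tmprss4 with BC049352), so the members of a pair are not separate loci.

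No promoter, taken as 1000 bp on each side of a gene start, passed the quasi-binomial test among 7431 tested (0% lower and 0% higher). The annotation held 20807 promoters, and most were not tested for want of calls, so nothing is known of those here. An unadjusted p under 0.05 was found in 561, limma on percentages also called none, and a likelihood-ratio test without dispersion called 413. The tested promoters were largely unmethylated, with means of 7.59% in IFC and 7.85% in SO, and held few calls. The promoters of the smallest p-values, chosen after seeing them, included those of Plpp4 and Vps37a, which starts within Cnot7. That of Plpp4 was at 10.0, 0, 0 and 6.25% in IFC and 100, 76.0, 70.2, 44.8 and 72.7% in SO (adjusted p = 0.189). That of Vps37a was at 5.48, 6.94, 29.4 and 11.1% against 84.0, 57.7, 56.1, 70.8 and 34.1% (adjusted p = 0.189). Plpp4 passed when SO4 was left out (adjusted p = 0.0210). When at least 20 calls were required, Vps37a, Foxp1, a forkhead factor, and Bok passed as hypomethylated and Nfatc2, a calcineurin-dependent factor, and Ubald2 as hypermethylated. In Ubald2 the groups overlapped, with 0, 48.6, 33.3 and 6.25% in IFC1 to IFC4 and 0 to 4.08% in SO.

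The gene lists, written with earlier results of these data known, are described by their counts beside all gene bodies, whose median difference was 0.458 points. Among all 22484 gene bodies 0.271% were called lower and 0.205% higher, and 1938 had an unadjusted p under 0.05, so a count of 0 in so short a list is near the background and nothing is read from it. Of 27 tested genes at maternally methylated imprint control regions 0 were called by the quasi-binomial test, with a median difference of -0.204 points. Slc38a4, an amino acid transporter, had the smallest p, at 34.8% ± 10.0 in IFC against 22.2% ± 3.13 in SO (adjusted p = 0.164), and held 2 hypermethylated bins. Blcap followed, at 54.3% ± 2.92 against 67.5% ± 6.28 (adjusted p = 0.480). Of 20 genes that write, erase or keep methylation 0 were called, with a median of 1.35 points. Kdm1a, a histone demethylase, was at 77.5% ± 8.96 against 64.5% ± 3.31 (adjusted p = 0.344). Tet3, which oxidises methylcytosine, was at 89.8% ± 2.40 against 92.9% ± 1.77 (adjusted p = 0.577). A single bin was hypomethylated in Dnmt3a and a single bin hypermethylated in Tet2. In these lists 2 and 2 members had an unadjusted p under 0.05.

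Of 24 oocyte genes, 33 genes of gonadotropin, steroid, insulin and growth factor signalling, 31 genes of the TGF-beta and BMP pathways and 22 genes of glycolysis 0 were called, where 0.271% of all gene bodies were lower and 0.205% higher, with medians of 0.568, 0.432, 0.794 and -0.763 points. An unadjusted p under 0.05 was found in 4, 4, 4 and 0 of them, and in 1938 of all 22484 gene bodies, so nothing is read from these counts. Nobox, an oocyte homeobox factor, was at 33.2% ± 9.54 in IFC and 49.2% ± 8.08 in SO (adjusted p = 0.461). Zar1, a maternal effect gene, was at 4.37% ± 2.89 and 10.2% ± 10.0 (adjusted p = 0.496). Esr2, an estrogen receptor, was at 16.3% ± 3.95 and 23.3% ± 2.97 (adjusted p = 0.325), and Insr, the insulin receptor, at 68.0% ± 3.51 and 75.5% ± 2.52 (adjusted p = 0.344).

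Smad9, a transducer of BMP signals, came near the threshold, at 19.1, 17.8, 14.1 and 11.6% in IFC and 24.7, 29.5, 34.7, 27.4 and 24.0% in SO (adjusted p = 0.0515). It held 1 hypomethylated bin, and SOA and IV averaged 41.1% and 44.5%. Acvr2a, an activin receptor, was at 79.0% ± 5.83 against 70.1% ± 3.56 (adjusted p = 0.480). In glycolysis Aldoc, an aldolase, was at 97.1% ± 2.22 against 92.8% ± 4.91 (adjusted p = 0.661). Slc2a1, a glucose transporter, was at 76.5% ± 3.96 against 70.5% ± 4.40 (adjusted p = 0.751).

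Of 43 genes of axon guidance and synaptic adhesion 4 were hypomethylated in IFC (Tenm4, Rims1, Plxna4 and Tenm2) and 0 hypermethylated, while 17 had an unadjusted p under 0.05. Among all 22484 gene bodies the shares were 0.271% and 0.205%, and 1938 had such a p. The median difference over the list was 0.0914 points, and 7 members held a hypomethylated bin, as did 241 of all 30233 annotated genes. The genes of the list are long, with a median of 573 kb, and so span more bins than most genes. The list was also written with the genes the study names in view, so its count is not independent evidence. Tenm2, another teneurin, was at 15.8, 16.1, 16.3 and 14.3% in IFC and 19.7, 19.5, 19.4, 20.6 and 18.1% in SO (adjusted p = 0.0239). This call was lost when any library but SO5 was left out (adjusted p from 0.0511 to 0.0880). Nlgn1, a neuroligin, at 46.1% ± 4.71 against 54.1% ± 1.24 (adjusted p = 0.0516), and Dcc, the netrin receptor, at 32.5% ± 3.16 against 38.6% ± 1.54 (adjusted p = 0.0768), did not pass.

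The average level of the methylome did not differ detectably. Over all tested bins it was 43.1, 43.3, 42.6 and 41.2% in IFC and 43.0, 43.1, 42.1, 43.0 and 41.6% in SO. The difference of -0.0431 points had p = 0.960 by an exact permutation test over all assignments (two-sided, smallest possible p = 0.00794). Bins were also grouped by their mean level in the 7 adult libraries. In bins below 20% in the adults the level was 8.58, 9.09, 8.32 and 9.08% in IFC and 7.50, 7.85, 7.23, 10.4 and 7.30% in SO. Every SO library but SO4 lay below every IFC library, and the difference of 0.715 points did not pass the exact permutation test (adjusted p = 0.823 over 5 classes). Without SO4 it was 1.30 points, with every IFC library above every SO library left (adjusted exact permutation p = 0.143). The unadjusted p is then the smallest that the libraries left can give, so this class could not have passed by itself.

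In bins at 60 to 80% in the adults the level was 68.9, 68.6, 68.0 and 63.2% in IFC and 71.0, 70.9, 69.1, 67.7 and 67.3% in SO. IFC4 was far below the rest, and the difference of -1.99 points did not pass (adjusted exact permutation p = 0.823). It was -0.650 points without IFC4 and -3.74 points with only the shallow SO1 and SO2, and neither passed. Every IFC library lay below SO1 and SO2. With so few assignments the exact permutation test could not pass there, so it decides nothing for the shallow libraries. In the classes of 20 to 40%, 40 to 60% and 80% or above the differences were -0.155, -0.886 and -0.309 points, with adjusted exact permutation p of 0.823 to 0.849. Over 5 equal classes of CpG density they ran from -0.183 to 0.298 points (adjusted exact permutation p = 0.905 in each). The share of called bins was uneven over the classes: 1.42% of the bins at 60 to 80% were hypomethylated against 0.0199% of those below 20%. Bins of the latter class averaged 8.06% in SO and had little room to fall, so this contrast is partly fixed by the level.

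**Figure D5:**
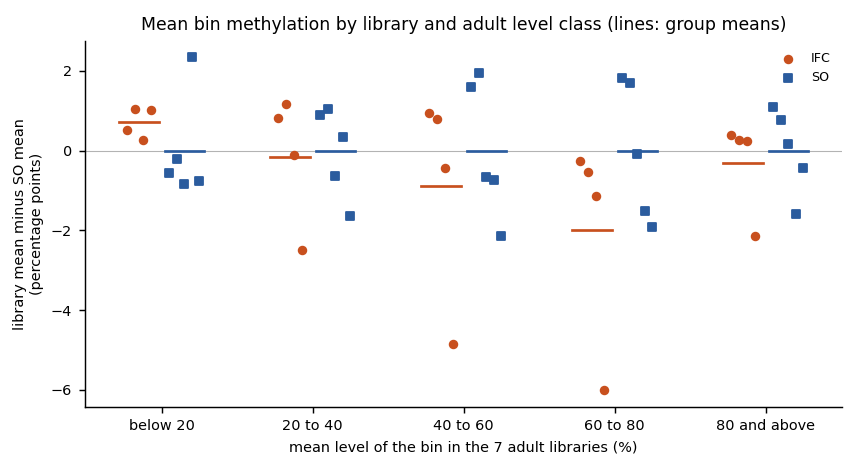
Mean bin methylation of each library minus the SO mean, in percentage points, for IFC (circles, 4 libraries) and SO (squares, 5 libraries) in 5 classes of bins set by their mean level in the 7 adult libraries, with group means as lines. IFC4 lies lowest in each class from 20% upwards, and SO4 lies highest in the class below 20%, at 10.4%.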

How the data were processed

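PBAT libraries of 4 IFC and 5 SO pools were compared, and 7 adult libraries served as reference. The deposited files give, per CpG position, counts of calls in each state (methylated or not) and the percent methylated, which the authors made with Trim Galore 0.4.4, cutadapt 1.9.1 and Bismark 0.19.0 on GRCm38, as the submitters' processing notes name them. The counts were used, and the deposited percent was recomputed per region. Positions covered by a single call made up 68.8 to 91.5% in the 9 libraries, so regions and not single sites were tested.

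Calls were summed over 10-kb autosomal bins, gene bodies and promoters (GENCODE protein-coding and lncRNA genes) with at least 10 calls in each of the 9 libraries. Per region a logistic model of the counts with group as its only term was fitted, as in the study. A Pearson dispersion, not below 1 and moderated with limma 3.58.1 (R 4.3.3), was added so that the spread between pools enters the test (F test, Benjamini-Hochberg over each kind of region). The moderation used 276 prior degrees of freedom in bins and 16.4 in gene bodies, against 7 residual ones. A bin's p-value thus rests mostly on the spread common to bins of similar counts and level, and little on its own. Group levels are means of library percentages, and errors are SD or SE over libraries. Mean levels were compared by exact permutation tests. Python 3.11.15, numpy 2.4.6, pandas 2.3.3, scipy 1.17.1 and matplotlib 3.10.9 were used, and the fits were tested on simulated data, where the share of false calls was above the nominal level among bins and near it among gene bodies. The likelihood-ratio test without dispersion called far more unchanged regions there than the quasi-binomial test.

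Members and lists were chosen with earlier results of these data known. Named were, per direction, the 12 genes with the most called bins (ties by the smaller gene-body adjusted p), the 8 called bins with the largest difference and no overlap of groups, called promoters (0), list members that were called, and the 2 list members with the smallest p otherwise. Other names are marked as chosen after their values were seen. Alternatives were a likelihood-ratio test, limma on percentages, a replicate block, shallow or thinned libraries, other call minimums, bin sizes and starts, reference CpGs only, removal of the bins with the most calls, and leaving out each library. A library offset, shallow against deep SO, and leaving out IFC4 and SO4 were added after seeing the data. Sex chromosomes were not analysed here.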

Additional observations from a re-analysis of the deposited data

Results flagged for a closer look

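In 10 of 136 groups of 4 or 5 libraries examined, 1 library lay far from the others by Dixon's criterion for the gap relative to the range, where chance gives about 1 in 20 groups. By class of bins, SO4 was at 10.4% in bins below 20% in the adults, against 7.23 to 7.85% in the other SO libraries. IFC4 was at 63.2% in bins at 60 to 80% in the adults, against 68.0 to 68.9% in the other IFC libraries. It was at 89.6% in bins at 80% or above, against 92.0 to 92.2%.

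By gene body, IFC4 was also apart in Sox5, at 28.7% against 36.4 to 37.5%, and in Plxna4, at 56.2% against 64.9 to 66.2%. IFC2 was apart in Plpp4, at 52.1% against 55.9 to 56.4%, and in Map2k6, at 42.2% against 52.5 to 53.9%. Among SO libraries, SO1 was apart in Plxna4, at 76.5% against 71.1 to 72.3%, and in Crhr1, at 50% against 23.6 to 29.8%. SO2 was apart in Chst11, at 55.1% against 48.3 to 49.6%.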

How the results depend on the processing

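The direction of every bin and gene body called held in each alternative for which the same regions could be refitted, but the number called did not. Direction could not change with the likelihood-ratio test, limma, the replicate block, the library offset or other call minimums, which use the same library percentages. It could change with libraries left out or thinned and with reference CpGs only, yet these regions had been picked for large differences. From 523 hypomethylated and 209 hypermethylated bins the counts went to 4037 and 3360 with a likelihood-ratio test, 29 and 14 with limma on percentages, 57 and 18 with the shallow SO1 and SO2 only, 346 and 131 with libraries thinned to equal calls, and 286 and 137 with at least 20 calls. Leaving out each library gave 265 (without IFC4) to 703 (without SO4) and 121 (without IFC3) to 335 (without SO4). For 61 hypomethylated and 46 hypermethylated gene bodies the counts were 1478 and 2763, 0 and 0, 3 and 0, and 42 and 29 under the first 4 of these, and without IFC4 and SO4 together 24 and 42. Leaving out each library gave 29 (without IFC3 or IFC4) to 68 and 18 (without IFC3) to 46. Promoters went from 0 to 252 lower and 161 higher with the likelihood-ratio test and to 3 and 2 with at least 20 calls, and 0 to 1 were lower over the libraries left out. The cause was not tested.

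Replicate numbers paired the libraries weakly at most. Same-numbered IFC and SO libraries correlated at 0.00524 to 0.078 in their deviations over bins, and libraries of other numbers at -0.0487 to 0.0281. The highest value was that of IFC4 with SO4, and 2 of 4 IFC libraries correlated best with their own number. With a replicate block, 280 and 71 bins (270 and 68 of them shared) and 31 and 11 gene bodies were called. SO5 has no IFC library of its number, so this fit draws nothing from it, and without SO5 but with no block the counts were 603 and 195 bins and 68 and 39 gene bodies.

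The mean differences between IFC and SO are small and changed sign: over all bins 0.00589 points with at least 20 calls, and -0.290 to 0.396 over the libraries left out. In the classes of 20 to 40%, 40 to 60% and 80% or above the latter range was -0.598 to 0.626, -1.49 to 0.434 and -0.707 to 0.297, and in the 5 equal classes of CpG density, from poor to rich, -0.352 to 0.301, -0.432 to 0.193, -0.396 to 0.279, -0.381 to 0.332 and -0.0383 to 0.875, with -0.317 in the richest class for shallow libraries. For shallow libraries the difference was -0.559 over all bins and -1.12, -2.65 and -1.23 in the classes of 20 to 40%, 40 to 60% and 80% or above. In the classes below 20% and at 60 to 80%, where the sign held, the range over the libraries left out was 0.508 to 1.30 and -2.56 to -0.650, with -3.74 in the latter for shallow libraries.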
